A study of Mus musculus with 24 samples.

Results

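Genes that mark the spiny projection neurons of the striatum were followed in RNA-Seq libraries of the hippocampus (HIP) and the entorhinal cortex (EC) of Ts65Dn mice and their wt littermates. The 9 members (Pde10a, Drd1, Drd2, Adora2a, Penk, Tac1, Ppp1r1b, Rgs9 and Gng7) were the rows of the count table whose gene identifiers carry these symbols in the GRCm38 annotation, and all 9 were found among 55385 genes. Ts65Dn is a mouse model of Down syndrome that carries an extra minichromosome, made of the Mmu16 segment from Mir155 to Zbtb21 and the centromeric Mmu17 segment from Scaf8 to Pde10a, so that Pde10a is the only member present in an additional copy. Of 12 male mice aged 5 to 6 months on an F1 B6C3B background, 6 were Ts65Dn and 6 were wt without the minichromosome, and each mouse gave 1 HIP and 1 EC library, 24 in all. The line bears every gene of both segments in extra copy, and no animal in these groups carried the Pde10a segment alone. Region is named here as the labels give it, and no striatum was sequenced.

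Spiny projection neurons are the principal cells of the striatum and come in a pair of classes. Neurons of the direct pathway carry the dopamine receptor Drd1 and the tachykinin precursor Tac1, and neurons of the indirect pathway carry the dopamine receptor Drd2, the adenosine receptor Adora2a and the enkephalin precursor Penk. Both classes read these receptors out through cAMP: Gng7 encodes a G protein gamma subunit that couples receptors to adenylyl cyclase, Rgs9 ends G protein signals, Ppp1r1b encodes DARPP-32, a phosphatase inhibitor switched on by protein kinase A, and Pde10a encodes a phosphodiesterase that breaks down cAMP and cGMP. Outside the striatum the same genes are read at lower levels by other neurons.

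Libraries that stood apart are given before the results. In the mouse labelled Ts65Dn replicate 3, Pde10a and the median of its 8 triplicated Mmu17 neighbours were near the wt mean in both regions. By these values the mouse went against its label. Member calls between genotypes, correlations with Pde10a over all mice of a region and the gene most like Pde10a are also given without it. Other results, among them those between regions, of genotype by region and of the gene lists, keep this mouse unless stated. The neighbour Ezr differed, since its lowest Ts65Dn EC level was 77.5 CPM and its highest wt EC level 71.8 CPM. In the EC, the libraries labelled Ts65Dn replicates 1, 2 and 6 had far more Adora2a than the other 9, together with the most Drd2 and Rgs9. The fits between genotypes, between regions and of genotype by region are also given without these 3 mice, a choice made after their values were seen. Shifts of Adora2a, Drd2 and Rgs9 in those fits follow in part from that choice and are no test of it. Library totals ran from 23128589 to 40476492 counts, no pair of libraries was identical, and the regional markers matched the labels: 5 of 6 dentate and CA genes were higher and 5 of 6 cortical layer genes lower in the HIP. The defining spiny neuron markers Isl1 and Drd3 were at most at 0.812 CPM in any library. In wt EC, Isl1 was at 0 in 5 of 6 libraries and Drd3 in 3 of 6. In Ts65Dn EC, Isl1 was at 0 in 2 of 6 libraries and Drd3 in 4 of 6. The Isl1 counts there were 7, 2 and 6 in replicates 1, 2 and 6, and at most 1 in replicates 3, 4 and 5. HIP counts of Isl1 reached 24 in wt and 20 in Ts65Dn. In bulk tissue, fewer cells of a type and less RNA per cell cannot be told apart.

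In wt mice the members spanned a wide range of levels, compared between genes as CPM per kilobase of exon (CPM per kb), where CPM is the read count of a gene scaled for library size. In wt HIP, Gng7 led with 57.5 ± 3.39 CPM per kb (SD, n = 6), followed by Penk with 19.6 ± 2.88, Ppp1r1b with 16.1 ± 2.09 and Pde10a with 6.27 ± 0.758. Drd1 had 1.98 ± 0.139 CPM per kb, Tac1 1.54 ± 0.453, Drd2 0.982 ± 0.273, Rgs9 0.974 ± 0.245 and Adora2a 0.456 ± 0.0962. Of the neighbours in this order, the ranges of mean ± SD overlapped for Penk and Ppp1r1b, Drd1 and Tac1, Tac1 and Drd2, and Drd2 and Rgs9. In wt EC the order was Gng7 with 30.4 ± 5.11 CPM per kb, Ppp1r1b with 22.9 ± 2.68, Penk with 18.1 ± 6.48, Pde10a with 5.27 ± 0.590, Drd1 with 4.59 ± 0.743, Tac1 with 2.79 ± 0.868, Rgs9 with 0.779 ± 0.243, Adora2a with 0.732 ± 0.281 and Drd2 with 0.524 ± 0.215. There the ranges of mean ± SD overlapped for Gng7 and Ppp1r1b, by a narrow margin, for Ppp1r1b and Penk, for Pde10a and Drd1, and among Rgs9, Adora2a and Drd2. Those of Gng7 and Penk did not overlap.

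**Figure D1:**
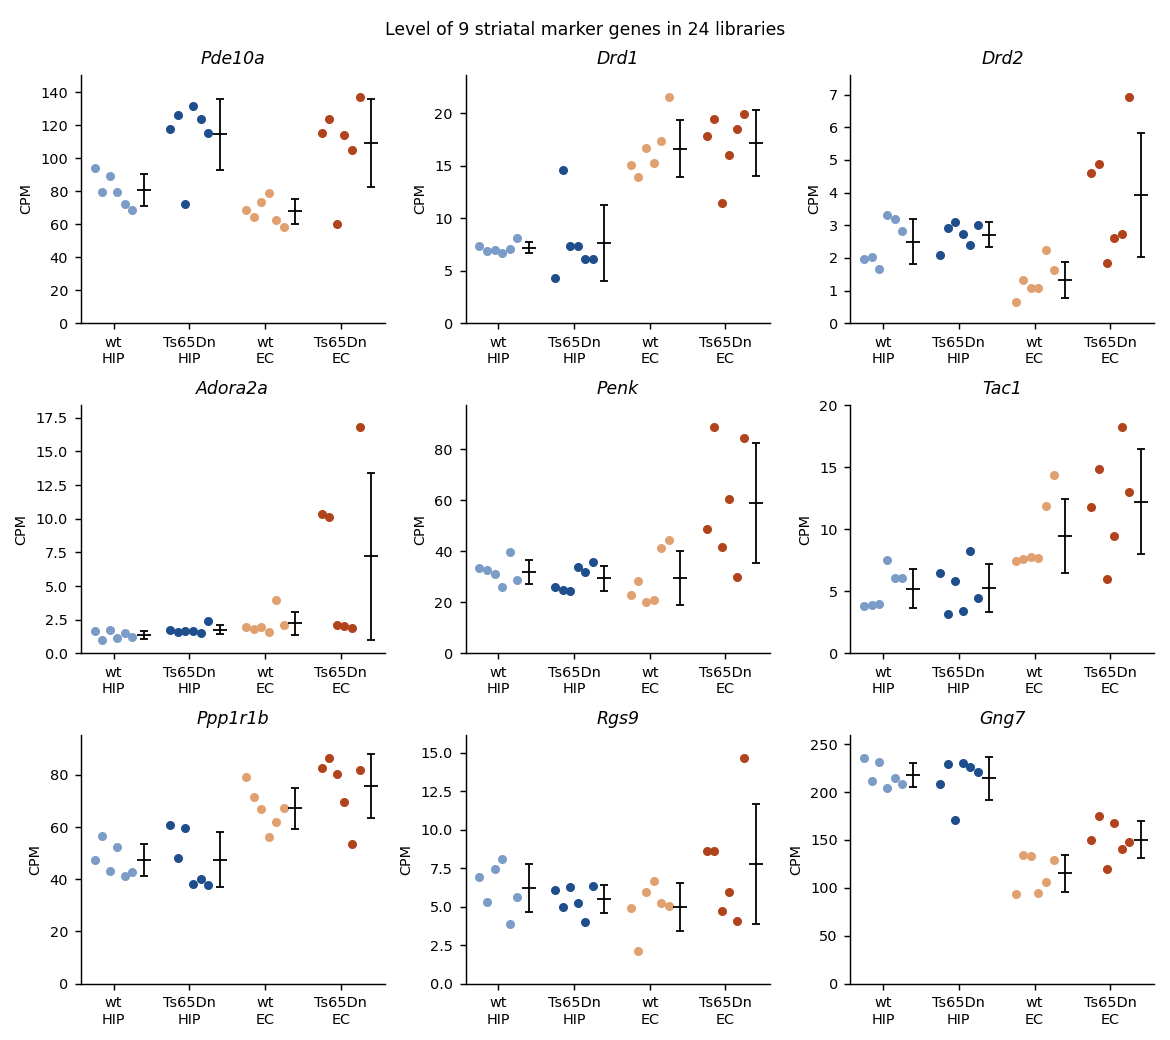
CPM of each member in each of 24 libraries, 6 per genotype and region, with points in order of replicate number from left to right and black bars for the mean ± SD. Pde10a in Ts65Dn lies above wt in both regions except for replicate 3, and Adora2a in the EC has 3 Ts65Dn libraries from 10.1 to 16.8 CPM while the others stay at 3.96 or lower.

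Pde10a was the first question, since it is the member with the extra copy. It lies on the plus strand of chromosome 17 (GRCm38, chr17:8525372-8986648). In the HIP it ranged from 68.6 to 94.2 CPM in wt, with a median of 79.5, and in Ts65Dn from 72.0 in replicate 3 to 132 in replicate 4, with a median of 121. The other 5 Ts65Dn mice had at least 115.5 CPM and did not overlap wt, while replicate 3 lay inside the wt range. In the EC it ranged from 58.1 to 78.8 CPM in wt, with a median of 66.6, and in Ts65Dn from 59.9 in replicate 3 to 137 in replicate 6, with a median of 115. Again 5 Ts65Dn mice lay above all wt mice and replicate 3 did not.

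The 8 triplicated neighbours Scaf8, Tiam2, Tfb1m, Zdhhc14, Synj2, Serac1, Gtf2h5 and Ezr give the level an extra copy produced in the same libraries. Relative to the wt mean, the median of the neighbours in Ts65Dn HIP was 1.56, 1.63, 0.964, 1.52, 1.61 and 1.59 in replicates 1 to 6, against 1.46, 1.56, 0.894, 1.64, 1.54 and 1.43 for Pde10a. In the EC the neighbours were at 1.51, 1.64, 0.943, 1.51, 1.56 and 1.52, and Pde10a was at 1.70, 1.83, 0.885, 1.68, 1.55 and 2.02. Pde10a thus stayed between 0.900 and 1.07 times its neighbours in Ts65Dn HIP and between 0.938 and 1.33 times in Ts65Dn EC, where replicate 6 was highest. Among wt mice, which carry no extra copy, the same ratio spanned 0.833 to 1.14 for HIP libraries and 0.849 to 1.17 for EC libraries.

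**Figure D2:**
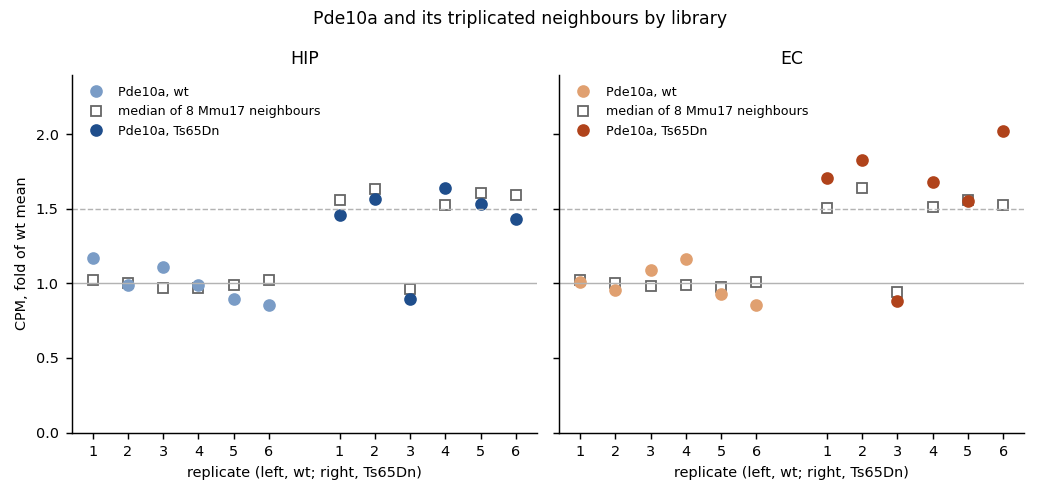
Pde10a (filled circles) and the median of its 8 triplicated Mmu17 neighbours (open squares) in each library, as CPM relative to the wt mean of the region; the solid line marks 1 and the dashed line 1.5. Ts65Dn replicate 3 is near 1 for both in both regions, and in the EC Pde10a of Ts65Dn replicate 6 reaches 2.02 while its neighbours are at 1.52.

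In the fit of the HIP libraries with edgeR's quasi-likelihood test, where called means a Benjamini-Hochberg adjusted p under 0.05 over all genes tested, 181 of 17355 genes (1.04%) and 0 of the 9 members differed between Ts65Dn and wt. Without adjustment 1 member, Pde10a, had p under 0.05, beside 2572 of all genes tested. DESeq2 called 1 member, again Pde10a, beside 662 genes (3.81%). Its log2 fold change was 0.50 (SE 0.12, adjusted p = 0.0800), and 0.61 (adjusted p = 0.000750) without the mouse labelled Ts65Dn replicate 3. Among the neighbours 7 of 8 were called higher, with a median log2 fold change over the 8 of 0.57 against 0.0047 over all genes tested. The other 8 members had log2 fold changes from -0.18 (Rgs9) to 0.34 (Adora2a, adjusted p = 0.385) in the HIP.

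In the EC 426 of 17049 genes (2.50%) differed between the genotypes and 2 of 9 members were higher in Ts65Dn, Pde10a and Drd2. Without adjustment 5 members had p under 0.05, beside 3235 of all genes tested. Pde10a rose by 0.68 on the log2 scale (SE 0.15, adjusted p = 0.0309) and Drd2 by 1.56 (SE 0.33, adjusted p = 0.0254). Of the neighbours 7 of 8 rose, with a median log2 fold change over the 8 of 0.53. The other 7 members had positive values that did not pass. The values were largest for Adora2a at 1.68 (SE 0.52, adjusted p = 0.0956), Penk at 0.99 (SE 0.27, adjusted p = 0.0643), Rgs9 at 0.64 (SE 0.30, adjusted p = 0.266) and Gng7 at 0.38 (SE 0.11, adjusted p = 0.0832), followed by Tac1 at 0.36 (SE 0.24, adjusted p = 0.443), Ppp1r1b at 0.16 and Drd1 at 0.04. DESeq2 called 1141 genes (6.69%) and 5 members, adding Adora2a, Penk and Gng7. The median log2 fold change of the 9 members was 0.64 in the EC and 0.0049 in the HIP, beside 0.0046 and 0.0047 over all genes tested.

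**Figure D3:**
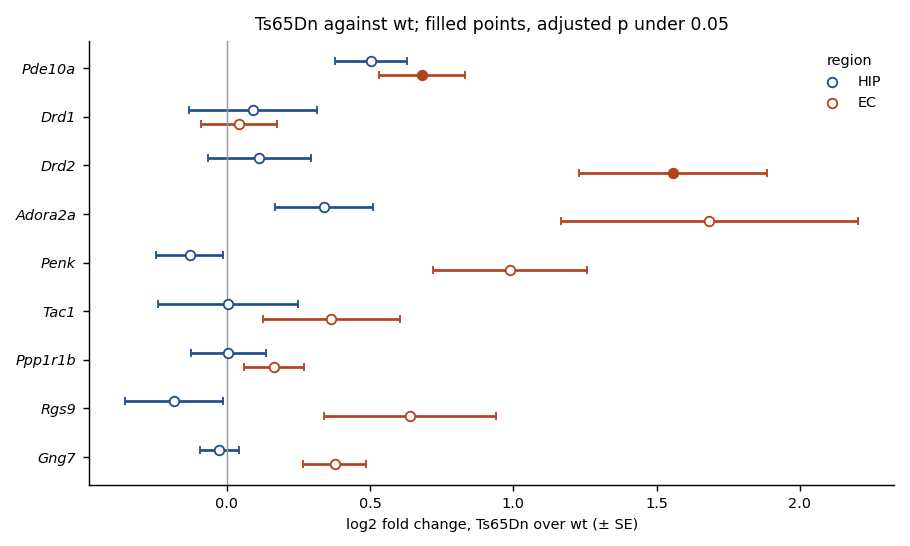
Log2 fold change of Ts65Dn over wt for each member with its standard error, in the HIP (blue) and the EC (red), 6 libraries per genotype; filled points have an adjusted p under 0.05 in edgeR. Only Pde10a and Drd2 in the EC are filled, and the EC values of Drd2, Adora2a, Penk and Rgs9 carry wider errors than their HIP values.

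Of the indirect pathway genes, Drd2 passed the test in the EC and Adora2a and Penk did not, and their levels varied widely from mouse to mouse. Drd2 (chr9:49340627-49408177) ranged from 0.646 to 2.23 CPM in wt EC, with a median of 1.21. In Ts65Dn EC it was at 4.59, 4.88, 1.84, 2.61, 2.72 and 6.92 CPM in replicates 1 to 6, all but replicate 3 above the wt range. Adora2a (chr10:75316877-75334784) ranged from 1.60 to 3.96 CPM in wt EC, with a median of 1.96. In Ts65Dn EC it was at 10.3, 10.1 and 16.8 CPM in replicates 1, 2 and 6, and at 2.13, 2.01 and 1.86 in replicates 3, 4 and 5, so that the same genotype held 3 mice far above and 3 mice inside the wt range. Penk (chr4:4133531-4138819) ranged from 20.2 to 44.2 CPM in wt EC and from 29.8 to 88.5 in Ts65Dn EC, with the highest values in replicates 2 and 6, and the genotypes overlapped. Rgs9 (chr11:109225355-109298129), which acts in both classes of spiny neuron, ranged from 2.10 to 6.65 CPM in wt EC and was at 8.63, 8.63 and 14.7 CPM in Ts65Dn replicates 1, 2 and 6, above all wt mice, and at 4.08 to 5.94 in the other three.

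For the direct pathway genes Drd1 and Tac1 the genotypes overlapped in the EC. The pathways were not compared by a test. Drd1 (chr13:54051183-54055705) ranged from 13.9 to 21.6 CPM in wt EC and from 11.4 to 19.97 in Ts65Dn EC, and its log2 fold change was 0.04 (SE 0.13, adjusted p = 0.904). Tac1 (chr6:7554879-7565834) ranged from 7.45 to 14.4 CPM in wt EC and from 6.00 to 18.2 in Ts65Dn EC, where the highest value was in replicate 5, outside the 3 libraries with high Adora2a. Ppp1r1b (chr11:98348404-98357796) ranged from 56.3 to 79.1 CPM in wt EC and from 53.4 to 86.7 in Ts65Dn EC, with a log2 fold change of 0.16 (SE 0.11, adjusted p = 0.429). Gng7 (chr10:80948624-81014945) ranged from 93.2 to 134 CPM in wt EC and from 120 to 175 in Ts65Dn EC, with 5 Ts65Dn mice above every wt mouse and replicate 3 inside the wt range. In the HIP of the same mice Adora2a was at 1.72, 1.59 and 2.41 CPM in replicates 1, 2 and 6, against 0.996 to 1.72 in wt, so of these mice only replicate 6 lay above the wt range there.

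In the HIP the genotypes overlapped for each of the 8 members without an extra copy. Drd1 ranged from 6.73 to 8.13 CPM in wt and from 4.34 to 14.6 in Ts65Dn, where replicate 2 was far above the rest and the next was at 7.41. Tac1 ranged from 3.81 to 7.51 CPM in wt and from 3.15 to 8.23 in Ts65Dn, Drd2 from 1.68 to 3.31 in wt and from 2.10 to 3.11 in Ts65Dn, and Penk from 26.1 to 39.9 in wt and from 24.3 to 35.7 in Ts65Dn. The 3 mice with high Drd2 in the EC therefore had HIP levels of Drd2 inside the wt range. Ppp1r1b ranged from 41.2 to 56.6 CPM in wt and from 37.9 to 61.0 in Ts65Dn, Rgs9 from 3.90 to 8.12 in wt and from 4.01 to 6.32 in Ts65Dn, and Gng7 from 204.5 to 236 in wt and from 171 to 230.2 in Ts65Dn.

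**Figure D4:**
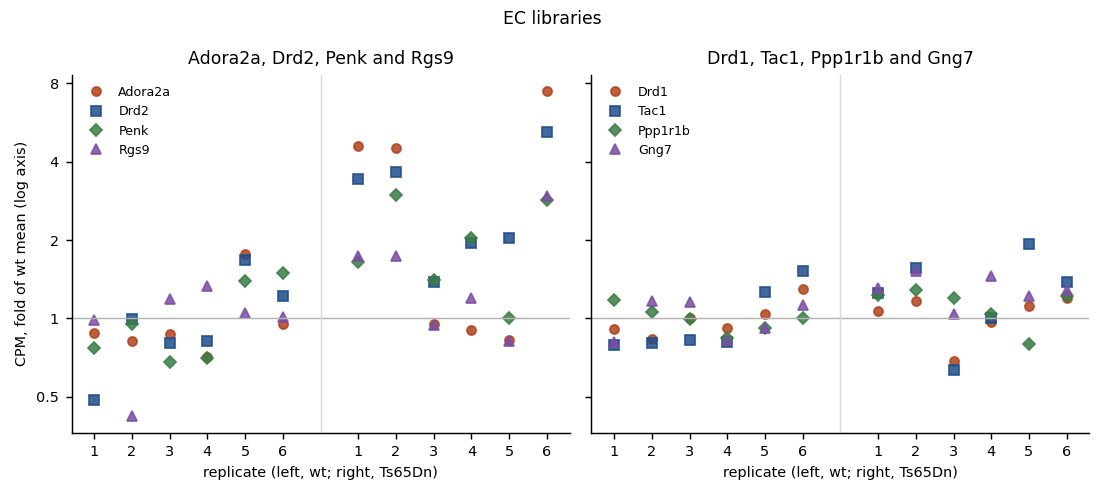
Level of 8 members in the 12 EC libraries as CPM relative to the wt mean, on a log axis, with wt replicates on the left and Ts65Dn replicates on the right of each panel. In Ts65Dn replicates 1, 2 and 6 Adora2a lies more than 4-fold above the wt mean, with Drd2, Penk and Rgs9 also above it, whereas Drd1, Tac1, Ppp1r1b and Gng7 stay within 2-fold of the wt mean. Drd2 and Penk are not below the wt mean in Ts65Dn replicates 3, 4 and 5 either.

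Values of spiny neuron markers outside the members are set beside this result. Six3 is a transcription factor of striatal neurons, named here after its values were seen. It was at 1.12, 1.57 and 2.00 CPM in EC replicates 1, 2 and 6 of Ts65Dn, against 0.0723 to 0.124 in replicates 3 to 5. In wt EC it was at 0 to 0.476 CPM, and its EC counts were at most 62. High Six3 was not particular to these EC libraries: in the HIP it was at 0.439 to 2.98 CPM in wt and 0.173 to 2.09 in Ts65Dn. Between regions edgeR called Six3 higher in the HIP (log2 fold change 1.68, adjusted p = 0.0106). The summed level of the 10 listed spiny neuron markers ran from 177 to 285 CPM in wt EC and from 153 to 240 in Ts65Dn EC, and 0 of 7 that could be tested differed between genotypes, Rasd2 and Scn4b included. Six3 itself was too low to be kept in the EC test. Summed interneuron markers ran from 1034 to 1155 CPM in wt EC and from 1026 to 1166 in Ts65Dn EC, with 0 of 8 called. The part of tissue from neighbouring structures in the high Adora2a, Drd2 and Rgs9 values was not tested.

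Both calls in the EC were lost in some of the fits that left out 1 mouse, given below. Without the mice labelled Ts65Dn replicates 1, 2 and 6, 0 members were called and the log2 fold changes were 0.84 for Drd2 (adjusted p = 0.215), -0.17 for Adora2a (adjusted p = 0.820), -0.03 for Rgs9 (adjusted p = 0.982) and 0.57 for Penk (adjusted p = 0.346). That fit keeps the mouse labelled replicate 3 among 3 Ts65Dn mice, and in it Pde10a was at 0.45 (adjusted p = 0.217). The mice it leaves out were those with the most Drd2, Adora2a and Rgs9 in the EC, so it cannot decide whether the Drd2 call holds. When replicate 3 was left out as well, with 2 Ts65Dn mice against 6 wt, Pde10a was called at 0.70 (adjusted p = 0.0119) and was the 1 member called, while Drd2 was at 1.001 (adjusted p = 0.229). With only replicate 3 left out, 3 members were called: Pde10a at 0.81 (adjusted p = 8.17e-05), Drd2 at 1.70 (adjusted p = 0.00940) and Gng7 at 0.43 (adjusted p = 0.0414). Leaving out each of the 12 mice in turn kept the Pde10a call in 5 fits and the Drd2 call in 7, with adjusted p up to 0.0733 for Pde10a and 0.0657 for Drd2. With log2 CPM of Six3 as a covariate, an alternative added after the data were seen, 0 members were called, and Adora2a was at 0.07 (adjusted p = 0.911), Drd2 at 0.86 (adjusted p = 0.0874) and Pde10a at 0.51 (adjusted p = 0.151). With the mean standardized level of the 8 other members as a covariate, Pde10a was at 0.38 in the EC (adjusted p = 0.308) and at 0.50 in the HIP (adjusted p = 0.107). In the EC both covariates were highest in Ts65Dn replicates 1, 2 and 6, so they repeat the same split of mice and cannot decide the calls.

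The sequence upstream of 3 members is shown because Pde10a has the extra copy and Drd2 and Rgs9 were high in the same EC libraries. RefSeq promoter windows on GRCm38.p6 were found for 6 of the 9 members, 9 windows in all, and only the 250 bases before each start are used. Each is printed 5′ to 3′ on the strand of its gene, with capitals marking the GC box GGGCGG on either strand. The windows are chr17:8801495-8801744 on the plus strand for the first of 2 RefSeq starts of Pde10a, chr9:49340153-49340402 on the plus strand for Drd2, and chr11:109298182-109298431 on the minus strand for Rgs9. The Pde10a window lies inside the span of the gene given above. The bases just after each start were found in 2 of 14 GENCODE transcripts of Pde10a, 0 of 1 of Drd2 and 0 of 5 of Rgs9. Which starts were used in these libraries was not tested.
Pde10a: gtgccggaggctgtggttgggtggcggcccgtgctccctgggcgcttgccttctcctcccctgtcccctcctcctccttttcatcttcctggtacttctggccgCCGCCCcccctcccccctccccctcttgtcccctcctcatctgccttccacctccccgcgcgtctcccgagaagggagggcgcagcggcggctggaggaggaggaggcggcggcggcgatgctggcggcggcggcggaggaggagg
Drd2: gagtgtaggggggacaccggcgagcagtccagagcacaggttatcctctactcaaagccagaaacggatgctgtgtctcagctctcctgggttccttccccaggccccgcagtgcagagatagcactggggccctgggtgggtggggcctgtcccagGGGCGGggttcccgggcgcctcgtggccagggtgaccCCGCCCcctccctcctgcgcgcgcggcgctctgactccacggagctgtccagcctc
Rgs9: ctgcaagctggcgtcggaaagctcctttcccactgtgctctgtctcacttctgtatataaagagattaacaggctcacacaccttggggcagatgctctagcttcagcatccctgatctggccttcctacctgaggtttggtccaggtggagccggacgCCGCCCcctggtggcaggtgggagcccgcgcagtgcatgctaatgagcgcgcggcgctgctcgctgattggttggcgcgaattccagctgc
The GC content of these windows was 72.8% for Pde10a, 68.8% for Drd2 and 59.6% for Rgs9, against a median of 52.4% over 32851 windows of the same length. The GC box occurred 1 time upstream of Pde10a, 2 times upstream of Drd2 and 1 time upstream of Rgs9, and 32.7% of all windows held at least 1. The cAMP response element TGACGTCA was in 0 of the 9 member windows and in 1.55% of all windows. Its shorter core TGACG, which the full element contains, was in none of the printed windows, in 1 window of Tac1 and 1 of Gng7, and in 17.8% of all. The letters TATAAA, searched on both strands like the others, were in the Rgs9 window alone among the members and in 12.4% of all windows.

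Between regions of the same mice, fitted with the mouse as a term, 12395 of 18109 genes (68.4%) differed and 6 of 9 members did, a share like that of all genes. Lower in the HIP were Drd1 (log2 fold change -1.21, SE 0.11), Adora2a (-1.19, SE 0.27), Tac1 (-1.03, SE 0.15) and Ppp1r1b (-0.60, SE 0.068). Higher in the HIP were Gng7 (0.72, SE 0.072) and Pde10a (0.16, SE 0.048, adjusted p = 0.00573). Without the mouse term Pde10a was at 0.16 and was not called (adjusted p = 0.189). Drd2, Penk and Rgs9 were not called, at 0.18, -0.38 and -0.04. Without the mice labelled Ts65Dn replicates 1, 2 and 6, 7 members were called, 3 higher and 4 lower in the HIP. Drd2 was then higher at 0.66 (SE 0.17, adjusted p = 0.00336) and Adora2a lower at -0.54 (SE 0.13, adjusted p = 0.00267), while Penk was at -0.06 (adjusted p = 0.739) and Rgs9 at 0.26 (adjusted p = 0.111).

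In wt mice alone, where 61.3% of genes were called, Drd2 was higher in the HIP by 0.92 (SE 0.18, adjusted p = 0.00123), and Penk was at 0.17 (SE 0.14, adjusted p = 0.320). In Ts65Dn mice alone, where 52.3% were called, Drd2 was at -0.45 (SE 0.24, adjusted p = 0.136) and Penk was lower in the HIP by 0.93 (SE 0.19, adjusted p = 0.00187). The fit of genotype by region tests that difference itself. It called 0 of 18109 genes (0%) and 0 members, with 742 genes at an unadjusted p under 0.05 and 0 genes called by DESeq2. The interaction, the Ts65Dn change in the HIP minus that in the EC on the log2 scale, was -1.37 for Drd2 (SE 0.33, unadjusted p = 0.000776), -1.10 for Penk (SE 0.26, unadjusted p = 0.000759), -0.42 for Gng7 (SE 0.10, unadjusted p = 0.00102) and -0.77 for Rgs9 (SE 0.28, unadjusted p = 0.0146), each with an adjusted p of 0.9998 in edgeR, and for Pde10a it was -0.16 (SE 0.090, unadjusted p = 0.0870). Without the mice labelled Ts65Dn replicates 1, 2 and 6, the interaction was -0.71 for Drd2 (unadjusted p = 0.0397), -0.69 for Penk (unadjusted p = 0.0217), -0.28 for Rgs9 (unadjusted p = 0.359), -0.38 for Gng7 (unadjusted p = 0.0160) and 0.35 for Adora2a (unadjusted p = 0.239). With all mice Adora2a was at -1.01 (unadjusted p = 0.0541). The fit without these mice called 0 genes. When genes with few counts were kept in the fit of all mice, 37 of 36766 genes (0.101%) and 4 members, Drd2, Penk, Rgs9 and Gng7, were called.

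Whether Pde10a follows the other members was examined across mice of the same genotype and region, with Pearson's r and Spearman's rho of log2 CPM over 6 mice and the exact permutation of their 720 orderings. Of 32 relations 0 passed after adjustment by either measure, and 4 had an unadjusted permutation p under 0.05. The smallest exact permutation p was 0.00972 (adjusted p = 0.133), where 0.00139 is the smallest that 6 mice allow. It was shared by Gng7 in Ts65Dn HIP, the strongest of the 32 relations (r 0.98, rho 0.94, r 0.98 without the 2 mice farthest from the median of Gng7), and Drd2 in Ts65Dn EC. In Ts65Dn EC, Pde10a was positively related to 8 of 8 members, with r from 0.04 (Ppp1r1b) to 0.95 (Drd1) and a median of 0.71. There r was 0.83 for Drd2 (rho 0.94, exact permutation p = 0.00972, adjusted p = 0.133, and r 0.77 without the 2 mice farthest from the median of Drd2) and 0.95 for Drd1 (rho 0.83, exact permutation p = 0.0250, adjusted p = 0.200, r 0.76 without the 2 farthest). In wt EC, where no mouse differs in copy number, 1 of 8 relations was positive, the median r was -0.54, and the relation to Penk was -0.91 (rho -0.94, exact permutation p = 0.0125, adjusted p = 0.133, r -0.86 without the 2 farthest). In the HIP 5 of 8 were positive in wt, with a median r of 0.12, and 3 of 8 in Ts65Dn, with a median of -0.15.

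The Ts65Dn groups include the mouse labelled replicate 3, whose Pde10a is at the wt level, so the relation was also taken over all mice of a region with the genotype means subtracted and resampled within genotype. Without replicates 1, 2 and 6 a group of Ts65Dn mice holds 3, too few for a correlation, so none is given for it. Over 12 mice, Gng7 in the HIP had r 0.94 and rho 0.92 with Pde10a (permutation p = 0.00147, adjusted p = 0.0235 over 16 relations, r 0.88 without the 2 farthest), and 0 other relations passed on r. Without the mouse labelled Ts65Dn replicate 3 it had r 0.79 and rho 0.78 (permutation p = 0.0165, adjusted p = 0.265), and 0 of 16 relations passed. Gng7 of that mouse was at 171 CPM in the HIP, below all other 11 HIP libraries. In the EC without that mouse, r with Pde10a was -0.24 for Drd1 and 0.06 for Drd2 (permutation p = 0.526 and 0.873), and 0.65 for Rgs9 (rho 0.75, permutation p = 0.0410, adjusted p = 0.328).

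**Figure D5:**
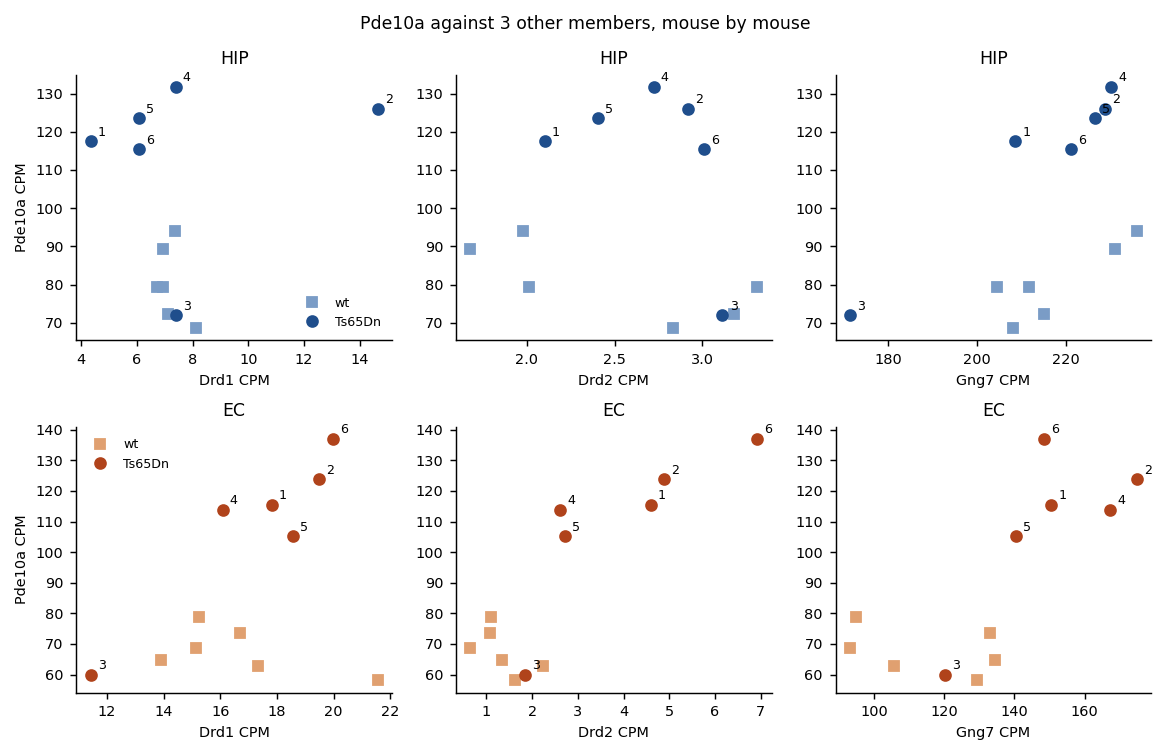
Pde10a against Drd1, Drd2 and Gng7 in CPM, with 1 point per mouse, the HIP above and the EC below, squares for wt and circles for Ts65Dn numbered by replicate; axes do not start at 0. Ts65Dn replicate 3 sits among the wt mice at 72.0 CPM of Pde10a in the HIP and 59.9 in the EC, away from the other 5 Ts65Dn mice.

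The 8 other members gave the background for these values, as a description over 28 pairs in each group of 6 mice. Their median r was 0.59 in Ts65Dn EC, with 26 positive pairs, 0.24 in wt EC with 18, -0.12 in wt HIP with 10 and -0.17 in Ts65Dn HIP with 11. Members of the same mouse were also compared between its HIP and EC. Of 18 relations 0 passed after adjustment, with a smallest adjusted p of 0.433 by exact permutation, reached by Drd1 in wt (r 0.81, rho 0.54, r -0.0052 without the 2 farthest), Adora2a in Ts65Dn (r 0.64, rho 0.77, r -0.22) and Gng7 in Ts65Dn (r 0.84, rho 0.71, r 0.27).

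Of 27 further striatal-enriched genes 24 could be tested between genotypes in each region. In the EC 1 was higher, Adcy5, the main adenylyl cyclase of striatal neurons, at 0.25 (SE 0.061, adjusted p = 0.0482). In the HIP 0 were called, with Adcy5 at 0.19 (SE 0.055, adjusted p = 0.128). Of all genes tested, 2.50% were called in the EC and 1.04% in the HIP. In the HIP 3 of these 24 genes had an unadjusted p under 0.05, beside 2572 of 17355 over all genes. Among the most abundant of these genes in the EC, Arpp21 was at -0.20 (adjusted p = 0.0824), Gnal, the stimulatory G protein alpha subunit of the striatum, at 0.10 (adjusted p = 0.337), Ptpn5 at 0.09 (adjusted p = 0.317), the phosphodiesterase Pde1b at 0.07 (adjusted p = 0.577) and the transcription factor Bcl11b at 0.28 (adjusted p = 0.352). Over the 24 genes in the EC the log2 fold change had a median of 0.08 and ran from -0.36 to 0.67. Of these genes 6 had an unadjusted p under 0.05 in the EC, beside 3235 of 17049 over all genes. Among the less abundant genes, named after their values were seen, Syndig1l at 0.67 (SE 0.35, adjusted p = 0.315), Rxrg at 0.66 (SE 0.28, adjusted p = 0.222), Sp9 at 0.43 (SE 0.18, adjusted p = 0.206) and Sh3rf2 at 0.37 (SE 0.21, adjusted p = 0.367) had values as large as those of some members and did not pass.

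Of 31 other cAMP and protein kinase A genes, all tested, 2 fell in the EC, where 2.50% of all genes were called. These were Pde4b, a phosphodiesterase specific for cAMP, at -0.20 (SE 0.039, adjusted p = 0.02001) and Gnai1, an inhibitory G protein alpha subunit, at -0.25 (SE 0.062, adjusted p = 0.0483). In the HIP 0 were called, and Pde4b was at 0.06 (adjusted p = 0.656) and Gnai1 at -0.13 (adjusted p = 0.277). There 7 of the 31 had an unadjusted p under 0.05, beside 2572 of 17355 over all genes. In the EC 9 of the 31 did, beside 3235 of 17049 over all genes. The medians over the list were -0.01 in the EC and 0.01 in the HIP. Between regions, 17 of 25 tested striatal-enriched genes were lower and 4 higher in the HIP, and 23 of 31 cAMP genes were lower and 4 higher, beside 68.4% called of all genes.

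The genes most like Pde10a were listed by Pearson's r over 12 mice with the genotype means subtracted, among genes with a mean of at least 1 CPM, with no test. In the HIP they were Sipa1l3 (r 0.97), Map2k1 (0.95), Arid1b (0.95), Bcl11b (0.94) and Rab5c (0.94), of 14947 genes compared. Arid1b lies in the triplicated segment of chromosome 17 like Pde10a, and Bcl11b is on the list of striatal-enriched genes. In the EC they included D3Ertd751e (0.92), Son (0.91), 4833422C13Rik (0.91) and Usp16 (0.91), of 14688 compared, and Son and Usp16 lie in the triplicated segment of chromosome 16. Without the mouse labelled Ts65Dn replicate 3 the first gene was Nrde2 in the HIP (0.96) and Cep57 in the EC (0.94). The genes most like the mean of the 8 other members began with Zbtb39 (0.87) and Chst10 (0.86) in the HIP and with Cbll1 (0.94) and Cenpj (0.93) in the EC, and the first 10 of each region held 0 genes of the striatal list.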

How the data were processed

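RNA was taken from the HIP and EC of 6 Ts65Dn and 6 wt mice. The authors aligned single-end reads of 50 bases with Hisat2 to GRCm38 and deposited raw counts per gene from HTSeq-count, without normalization. The labels name bcl2fastq 2.17.1.14 and a polyA selected stranded kit, while the study's methods name a ribosomal depletion kit, so the library type is unsure. Deposited tables of the authors' own comparisons (mean normalized counts, fold changes, scores and p-values) were not used. Groups, replicate numbers and mice came from the labels. Genes were matched to GENCODE vM21 (99.6% of identifiers), and 0 rows named no gene. Counts were fitted with edgeR 4.0.16 (filterByExpr, TMM, quasi-likelihood test, adjusted p under 0.05) in R 4.3.3, in each region without covariates and across regions with the mouse as a term. CPM were scaled by TMM over all 24 libraries, and log2 CPM used a prior count of 2. Standard errors were the log2 fold change over the square root of F. Counting error is small at these depths except for Drd2, Adora2a, Rgs9 and Six3, whose lowest counts were 17, 35, 63 and 0.

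Alternatives were DESeq2 1.42.0, its size factors, other filters on low counts, an adjusted p under 0.1, leaving out mice, the replicate number as a block, and covariates. Scripts were tested on simulated data. The replicate numbers do not pair wt with Ts65Dn mice, while the HIP and EC libraries of a mouse share its number: their deviations correlated at r 0.295 to 0.486 in wt and 0.226 to 0.484 in Ts65Dn, and each library was closest to its own mouse in 6 of 6 of both genotypes. The 9 members were named in every comparison. Of the other striatal-enriched genes the 6 most abundant were named, of the cAMP genes those past the test, and of the genes most alike the first by r, of which 1 is not reported here. Members and lists were chosen with earlier results of these data known.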

Additional observations from a re-analysis of the deposited data

Results flagged for a closer look

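A level was singled out where 1 library of 6 lay far from the other five in its group by Dixon's criterion at 95%, which chance alone meets in about 1 of 20 groups. Of 36 groups (9 members, 4 groups of mice) 5 held such a library. Pde10a of the mouse labelled Ts65Dn replicate 3 was low in the HIP at 72.0 CPM, with the nearest other mouse at 115.5 CPM, and Gng7 of the same library was low at 171 CPM, with the nearest at 209 CPM. Drd1 of Ts65Dn replicate 2 was high in the HIP at 14.6 CPM, with the nearest at 7.41 CPM. Adora2a of Ts65Dn replicate 6 was high in the HIP at 2.41 CPM, with the nearest at 1.72 CPM, and Adora2a of wt replicate 5 was high in the EC at 3.96 CPM, with the nearest at 2.13 CPM. The spread of Adora2a in Ts65Dn EC, with 3 high and 3 low mice, is not of the kind that this criterion detects.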

How the results depend on the processing

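Of the members called in the HIP, the count of 0 became 1 with an adjusted p under 0.1, with DESeq2 and without the mice labelled Ts65Dn replicates 1, 2, 3 and 6, and it was 0 to 1 as each mouse was left out. The member was Pde10a each time, with log2 fold changes of 0.50 (adjusted p = 0.0800), 0.50 (adjusted p = 0.00576) and 0.67 (adjusted p = 0.0282), and from 0.46 to 0.61 as each mouse was left out. In the EC the count of 2 became 5 with an adjusted p under 0.1 and with DESeq2, 0 with the replicate block, 0 with Six3 as a covariate, 0 without Ts65Dn 1, 2 and 6, 1 without Ts65Dn 1, 2, 3 and 6, and 0 to 3 as each mouse was left out. Pde10a in the EC was not called with the replicate block (0.65, adjusted p = 0.111), with the mean of the other members as a covariate (0.38), with Six3 as a covariate (0.51) or without Ts65Dn 1, 2 and 6 (0.45), and ran from 0.61 to 0.81 as each mouse was left out. Drd2 with the replicate block was at 1.49 (adjusted p = 0.0693), and genes called fell from 426 to 36 in the EC and from 181 to 29 in the HIP. The numbers pair no mice: deviations of same-numbered wt and Ts65Dn libraries correlated between -0.224 and 0.162 for HIP pairs and between -0.104 and 0.166 for EC pairs. Over all genes, where edgeR called 181 in the HIP and 426 in the EC, DESeq2 called 662 and 1141, an adjusted p under 0.1 gave 389 and 1025, leaving out Ts65Dn 1, 2 and 6 gave 11 and 37, leaving out Ts65Dn 1, 2, 3 and 6 gave 86 and 71, no filter gave 135 and 275, the mean of the other members as a covariate gave 129 and 121, Six3 gave 243 and 70, and leaving out each mouse gave 54 to 318 and 90 to 685. The interaction count of 0 became 4 with no filter on low counts. Counts of members differing between regions (6 to 7) kept within 1.5 times under the alternatives run, and no member that was called changed direction. The causes were not tested. Low counts limit Drd2 and Adora2a.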
